A study of Homo sapiens with 2 samples.

Results

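Molecular chaperones bind unfolded or partly folded proteins and help them reach or keep their native form. The set described here holds the HSP70, HSP110, HSP90, HSP40 (DNAJ), small heat shock protein, chaperonin and BAG families, with the transcription factor gene HSF1 and the HSP70-HSP90 adaptor gene STIP1. Members were chosen by gene symbol and no measured value entered the rule, but earlier results of these data were known when it was set. The symbols were those starting with HSPA, HSPB, DNAJA, DNAJB or DNAJC and a digit, HSP90, or CCT and a digit from 2 to 8, together with BAG1 to BAG6 and 8 symbols listed one by one. Of those 8, HSF2 and AHSA1 had no named probe here. The rule found 100 probes for 92 genes, out of 24459 gene probes kept and 18638 genes with a symbol. It also took in 4 symbols that are not plain chaperone genes: the divergent transcript DNAJC3-DT, the readthrough DNAJC25-GNG10 and the pseudogenes HSPA8P14 and DNAJA1P5.

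HSP70 proteins hold and release substrates in a cycle driven by ATP, which J-domain proteins of the HSP40 family start and nucleotide exchange factors of the HSP110 and BAG families end. HSP90 finishes the folding of kinases and receptors handed over by HSP70 through STIP1, and the CCT ring encloses newly made actin, tubulin and other proteins. When unfolded proteins gather in the cytosol, the factor HSF1 binds heat shock elements, alternating runs of GAA and TTC, and switches on many of these genes. Cancer cells often hold them at high levels without any heat.

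Total RNA came from SW620, an established human colon carcinoma cell line grown in DMEM with serum. The CDR1AS array held RNA of cells expressing CDR1AS, a circular RNA with many sites for the microRNA miR-7, and the control array held RNA of cells with control lentiviruses. Each group was 1 array of 1 colour (Cy5). There is thus no replicate error, no test and no p-value: "higher" and "lower" below describe 2 arrays, and fewer cells with a transcript cannot be told apart from less of it per cell. The labels do not say how many clones or cultures stood behind each RNA, nor how CDR1AS was delivered.

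Of the 24459 probes, 87.2% were above background on the CDR1AS array and 84.4% on the control array. Background was the mean of 384 blank spots plus 2 SD, a spot intensity of 72.1 on the CDR1AS array and 69.1 on the control array. The colon epithelial genes were present on both arrays, with 8 of 10 listed markers above background on both. The markers went both ways, from CDX2 (log2 ratio -0.82) and EPCAM (-0.54) to KRT19 (0.83). Of 7 listed fibroblast markers 4 were measured, with a summed deposited signal of 169 on the CDR1AS array and 180 on the control array. The fibroblast collagen genes COL1A1, COL1A2 and COL3A1 and the leukocyte gene PTPRC had probes, and none was above background on either array. For the 3 of 5 leukocyte markers measured the sums were 31.2 on the CDR1AS array and 36.2 on the control array, and for the 4 endothelial markers 53.2 and 43.5 in the same order. These markers' part in the chaperone values was not tested.

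The deposited signal is the authors' own value on a linear scale, a spot's intensity over the blanks scaled so that the median of each array is 25. The log2 ratios below were computed from the spot intensities (normexp with an offset of 50, then quantile normalization) and are CDR1AS over control, so a positive ratio means a higher level on the CDR1AS array. The offset pulls the ratios of dim genes towards 0. Where a gene had several probes its brightest one stands for it. Repeated positive-control spots differed between the arrays with an SD of up to 0.19 on the log2 scale, over 24 spots, which is error within these 2 arrays only.

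Of the 92 genes, 88 were measured, that is above background on at least 1 array. The 4 not above background were CCT8L2, DNAJB3, DNAJB8 and HSPB8. Of the 88, 85 were above background on both arrays. HSPA6 and DNAJC6 were above background on the CDR1AS array only, and DNAJC5G on the control array only. All 3 lay close to the limit: HSPA6, the HSP70 gene that is nearly silent without stress, had a spot of 73.0 against the limit of 72.1 on the CDR1AS array and 66.2 against 69.1 on the control array. Its ratio against the floor was under 1, so no fold is given for it. DNAJC6, which encodes the clathrin-uncoating factor auxilin, was at least 1.02-fold higher.

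The chaperone genes as a whole differed little between the arrays. The 5 highest log2 ratios were those of HSP90AA1, HSPH1, CCT6A, DNAJB1 and STIP1, and the lowest were those of BAG1 and DNAJC19. The median log2 ratio of the 88 genes was 0.03, against -0.01 over all 16685 genes measured, and 49 of them were above 0 (55.7%, against 47.2% of all genes). At least 1.5-fold higher were 3 of the 88 (3.41%, against 2.62% of all genes), namely HSP90AA1, HSPH1 and CCT6A. At least 1.5-fold lower were 2 of the 88 (2.27%, against 2.23% of all genes), BAG1 and DNAJC19. Past 2-fold there were 0 members, against 0.755% of all genes on the higher side and 0.575% on the lower side. The shares past 1.5-fold are near those of all genes. When both arrays were only scaled to the same median, 5 members were at least 1.5-fold higher and 1 lower, against 3.04% and 1.88% of all genes. The authors' deposited values put 8 of 86 members higher (9.30%) and 3 lower, against 9.20% and 6.39% of all genes. After subtraction of the local background 10 members were higher and 12 lower, against 8.74% and 8.47% of all genes.

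**Figure D1:**
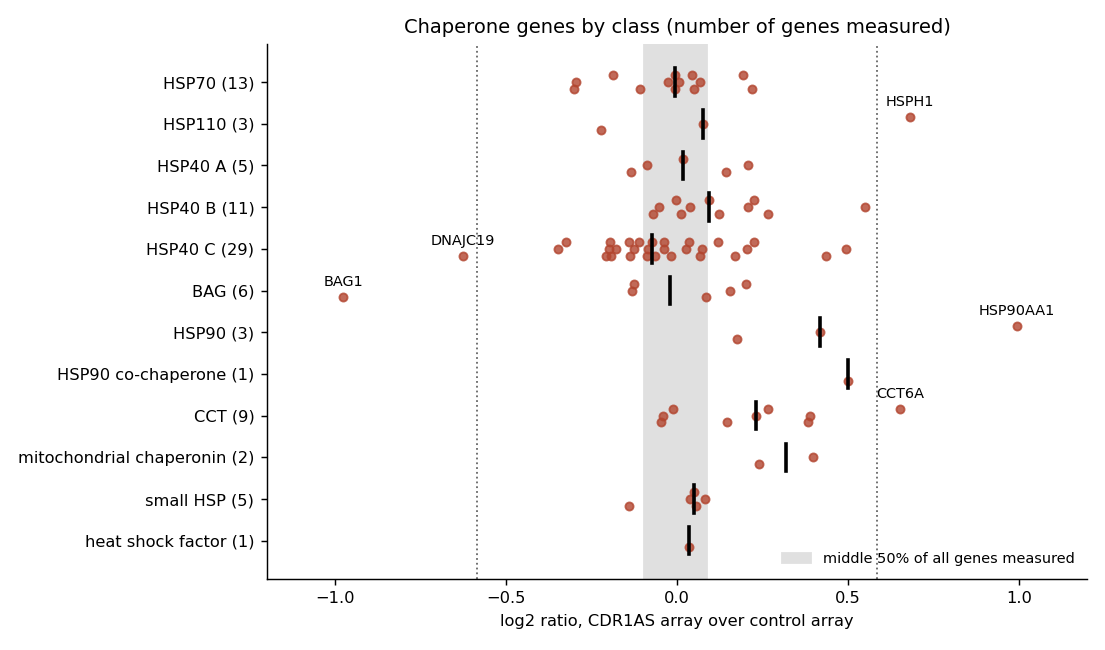
Log2 ratio (CDR1AS array over control array, x axis) of each measured chaperone gene, by class (y axis); points are genes, short black lines class medians, the grey band the range between the quartiles of all genes measured and dotted lines 1.5-fold. The 3 HSP90 genes, STIP1 and both mitochondrial chaperonin genes lie right of the band, while the HSP70 and HSP40 C genes spread on both sides of 0.

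The promoters of some members carry the letters that HSF1 is known to bind, and they are shown first so that the values can be read against them. Each window runs from 250 bases before to 50 after an annotated start, from RefSeq on GRCh38.p14, and 79 of the 92 member genes had at least 1 window. A heat shock element of 3 alternating units was searched, 13 letters long: GAA, any 2 bases, TTC, any 2 bases and GAA, or TTC, any 2 bases, GAA, any 2 bases and TTC. Each form is the reverse complement of the other, so both strands are covered, and overlapping matches were kept. It was found in windows of 7 of the 79 genes (8.86%), against 166 of 27305 genes with a window (0.608%). Counted by window it was in 7 of 102 for the members and 172 of 35116 overall. The windows of HSP90AA1, HSP90AB1, HSPA8 and HSPD1 are printed whole, in lower case with the matching letters in capitals, because these genes differ in their ratios (0.99, 0.18, -0.01 and 0.40) while all holding the motif:
HSP90AA1 (chr14:102086995-102087294, minus strand): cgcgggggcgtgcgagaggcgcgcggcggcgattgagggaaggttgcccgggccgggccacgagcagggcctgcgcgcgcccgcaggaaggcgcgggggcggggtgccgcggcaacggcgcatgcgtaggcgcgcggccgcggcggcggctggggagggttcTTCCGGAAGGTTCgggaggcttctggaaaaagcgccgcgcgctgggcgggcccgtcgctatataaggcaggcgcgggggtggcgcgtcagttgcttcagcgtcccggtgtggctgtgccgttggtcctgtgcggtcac
HSP90AB1 (chr6:44247693-44247992, plus strand): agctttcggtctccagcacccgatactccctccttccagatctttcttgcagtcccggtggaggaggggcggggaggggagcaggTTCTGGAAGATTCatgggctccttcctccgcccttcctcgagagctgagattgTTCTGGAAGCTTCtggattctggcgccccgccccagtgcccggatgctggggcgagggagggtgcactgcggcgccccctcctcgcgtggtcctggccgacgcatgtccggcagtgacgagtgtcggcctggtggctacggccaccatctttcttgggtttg
HSPA8 (chr11:123062087-123062386, minus strand): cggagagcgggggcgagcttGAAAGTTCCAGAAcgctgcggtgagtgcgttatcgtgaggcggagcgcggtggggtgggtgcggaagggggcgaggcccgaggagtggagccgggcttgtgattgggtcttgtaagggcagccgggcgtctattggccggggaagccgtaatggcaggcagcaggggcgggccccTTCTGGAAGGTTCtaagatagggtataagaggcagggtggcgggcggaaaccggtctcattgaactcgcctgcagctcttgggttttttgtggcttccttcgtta
HSPD1 (chr2:197499791-197500090, minus strand): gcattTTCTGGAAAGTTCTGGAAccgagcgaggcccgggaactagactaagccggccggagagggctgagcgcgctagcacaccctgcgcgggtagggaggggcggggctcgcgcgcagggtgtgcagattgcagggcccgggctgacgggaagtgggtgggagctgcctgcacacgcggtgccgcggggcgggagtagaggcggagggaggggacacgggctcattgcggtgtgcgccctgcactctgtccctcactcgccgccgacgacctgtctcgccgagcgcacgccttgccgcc
In HSP90AA1 the match begins 88 bases before the start. HSP90AB1 has matches 165 and 112 bases before it, and HSPA8 has them 230 and 55 bases before it. In HSPD1 a pair of overlapping matches begins 245 and 240 bases before a start that lies inside the annotated gene, and the other HSPD1 window has none. HSP90AA1 has 1 further window without a match and HSP90AB1 has 2.

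For the other 3 genes with a match only the site and 8 bases on each side are shown, since the site is what they share with those above:
HSPA6 (chr1:161524458-161524486, plus strand): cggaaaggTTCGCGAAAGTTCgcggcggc
DNAJB6 (chr7:157336865-157336893, plus strand): agagccgaGAACCTTCGCGAAggtggggc
DNAJA1 (chr9:33025268-33025296, plus strand): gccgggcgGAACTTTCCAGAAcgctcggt
The site of DNAJA1 begins 3 bases after its start. The 7 genes with a match had log2 ratios between -0.01 and 0.99, with a median of 0.18. Above 0 were 5 of them, where 47.2% of all genes were. The same letters thus stood before the gene with the highest ratio of all members and before genes with a ratio near 0. The windows of HSPH1, DNAJB1, STIP1, HSPE1, HSP90B1, HSPA1A and HSPA1B did not hold these letters. CCT6A had no window here and was not searched. A match is a description of sequence and not evidence of binding, and the absence of a match says only that these letters were not in this window.

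Among the HSP90 genes all 3 were higher on the CDR1AS array, where 47.2% of all genes were above 0, with a median log2 ratio of 0.42. HSP90AA1, the stress-inducible cytosolic form, had a deposited signal of 6845 on the CDR1AS array and 3244 on the control array. Its log2 ratio was 0.99 (1.99-fold higher), the highest of all members, and the deposited signals differed 2.11-fold. After subtraction of the local background the ratio of HSP90AA1 was 0.58, just under 1.5-fold. HSP90AB1, the constitutive cytosolic form, had 3891 on the CDR1AS array and 3401 on the control array, with a ratio of 0.18. The inducible cytosolic gene thus had the higher ratio of the cytosolic pair. HSP90B1, the form of the endoplasmic reticulum known as GRP94, had 1638 on the CDR1AS array and 1178 on the control array (0.42). RefSeq names 5 pseudogenes after HSP90AA1 and 6 after HSP90AB1, and since the probe sequences were not used here, signal from such copies cannot be told apart from the gene.

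STIP1, known as HOP, joins HSP70 and HSP90 as substrates pass between them. It had a deposited signal of 905 on the CDR1AS array and 619 on the control array, with a log2 ratio of 0.50 (1.41-fold higher). Its ratio was -0.19 after subtraction of the local background. That column was itself bright around bright spots: beside the HSPH1 spot it read 2476 against a spot of 2985 on the CDR1AS array, and 1359 against 1775 on the control array. Pearson's r between spot and local background, on the log scale across probes, was 0.942 on the CDR1AS array and 0.977 on the control array, where probes are not independent replicates.

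**Figure D2:**
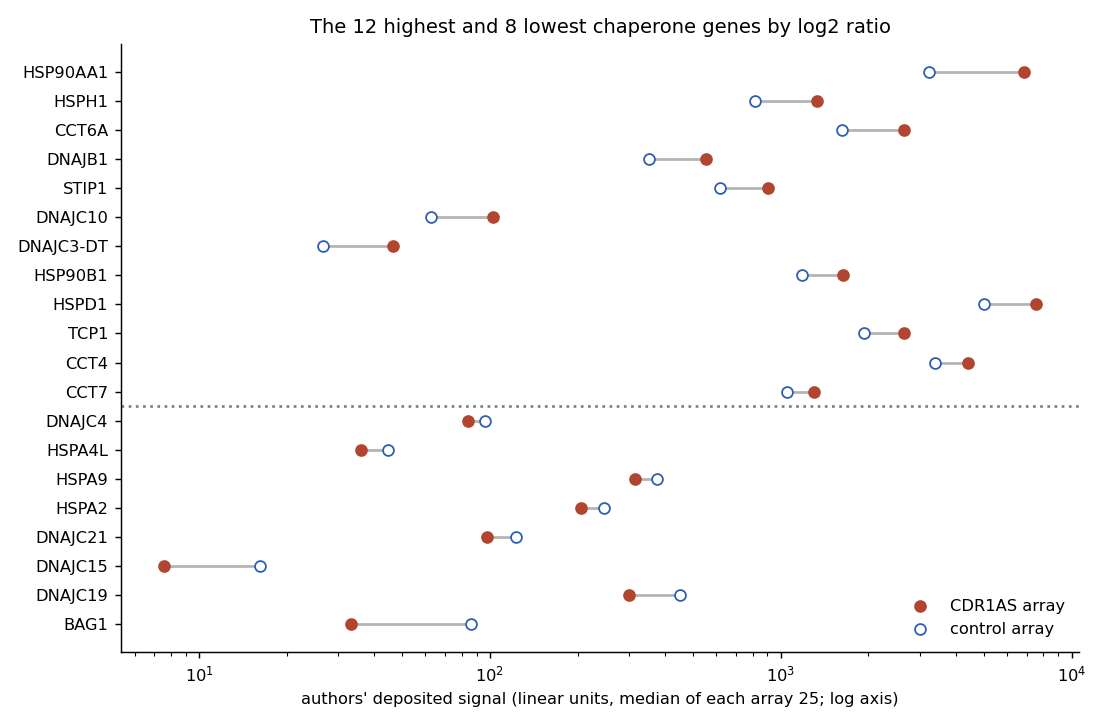
Deposited signal (x axis, log scale, linear units with the median of each array at 25) of the 12 highest and 8 lowest chaperone genes by log2 ratio (y axis), on the CDR1AS array (filled) and the control array (open). HSP90AA1 stands at 6845 against 3244 and BAG1 at 33.2 against 86.0. Levels of different probes are not comparable with each other.

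The HSP70 genes showed no common direction. Of 13 measured, 6 were above 0 and 7 below, with a median log2 ratio of -0.01, which became 0.04 when the arrays were only scaled to the same median and 0.08 in the deposited values. HSPA8, the abundant constitutive HSP70 of the cytosol, had a deposited signal of 9104 on the CDR1AS array and 8357 on the control array. Its log2 ratio was -0.01, and 0.14 with scaling to a common median. HSPA1A, the classic heat-inducible HSP70, had 437 on the CDR1AS array and 478 on the control array (-0.19), and its other probe gave -0.05. HSPA1B had 206 on the CDR1AS array and 200.3 on the control array (-0.03). The HSPA1A and HSPA1B transcripts are nearly identical in their coding part, so their probes may read both genes, and neither gene passed 1.5-fold. After subtraction of the local background these values were 2.49 for HSPA1A and 0.87 for HSPA1B, the other way from the values as reported.

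The highest HSP70 gene was HSPA14, which works on the ribosome together with DNAJC2, at 329 on the CDR1AS array and 265 on the control array (0.22). Its other probe gave 0.05. The lowest were HSPA2, known for its role in the testis, at 205 on the CDR1AS array and 246 on the control array (-0.30), and HSPA9, the mitochondrial HSP70, at 315 and 375 in the same order (-0.30). HSPA5, which encodes BiP of the endoplasmic reticulum, was at 41.7 on the CDR1AS array and 37.8 on the control array, with a ratio of 0.05. Its spot was dim, at 161 on the CDR1AS array and 145 on the control array, so the offset pulls its ratio towards 0. The remaining HSP70 genes, HSPA1L, HSPA12A, HSPA12B, HSPA13 and the pseudogene HSPA8P14, lay between -0.11 and 0.19. The other, dimmer probe of HSPA1L gave 0.24, outside that range.

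HSP110 proteins are relatives of HSP70 that serve as its nucleotide exchange factors. HSPH1, the heat-inducible HSP105, had a deposited signal of 1334 on the CDR1AS array and 815 on the control array. Its log2 ratio was 0.68 (1.60-fold higher), and -0.58 after subtraction of the local background. The other 2 genes of the class lay near or below 0: HSPA4 at 330 on the CDR1AS array and 296 on the control array (0.08), and HSPA4L at 36.1 on the CDR1AS array and 44.5 on the control array (-0.22). The class therefore had a wide range and a median of 0.08.

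The BAG family includes other exchange factors of cytosolic HSP70. BAG1, which also binds BCL2 and links HSP70 to the proteasome, was the lowest of all members. Its spot intensity was 142 on the CDR1AS array and 246 on the control array, and its deposited signal 33.2 on the CDR1AS array and 86.0 on the control array. The log2 ratio was -0.98 (1.97-fold lower), and the deposited signals differed 2.59-fold. BAG1 was dim, and its ratio was -0.56 after subtraction of the local background. The other 5 BAG genes stayed within 1.5-fold: BAG4 (0.20), BAG2 (0.15), BAG3 (0.09), BAG5 (-0.13) and BAG6 (-0.13, other probe 0.02). BAG3, an HSF1 target that directs proteins to autophagy, had 176 on the CDR1AS array and 158 on the control array.

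HSP40 proteins carry a J-domain that makes HSP70 hydrolyse ATP, and their other parts choose the substrate or the place. In class A, 3 of 5 measured genes were above 0, where 47.2% of all genes were, with a median of 0.02. DNAJA1, a farnesylated cytosolic partner of HSPA8, had a deposited signal of 1226 on the CDR1AS array and 1023 on the control array (0.21). DNAJA2 had a log2 ratio of 0.14, the mitochondrial DNAJA3 of 0.02, the pseudogene DNAJA1P5 of -0.09 and DNAJA4 of -0.14, the lowest of the class.

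In class B, 8 of 11 measured genes were above 0, where 47.2% of all genes were, with a median of 0.09 as reported. In the deposited values, where dim genes are not compressed, the median was 0.35. The genes above that median included 2 near background. These were DNAJB13, at 6.4 on the CDR1AS array and 4.3 on the control array, and DNAJB7, at 2.5 and 1.7 in the same order. DNAJB1, the main heat-inducible HSP40 of the cytosol, had 552 on the CDR1AS array and 353 on the control array. Its log2 ratio was 0.55 (1.46-fold higher), and the deposited signals differed 1.56-fold. It also passed 1.5-fold when the arrays were only scaled to the same median (0.62). DNAJB11 and DNAJB9, both co-chaperones of BiP, had 440 and 29.5 on the CDR1AS array, against 346 and 21.4 on the control array. Their log2 ratios were 0.26 and 0.21. DNAJB4 had 44.7 on the CDR1AS array and 33.3 on the control array (0.22, other probe 0.06). The remaining genes of the class, DNAJB2, DNAJB5, DNAJB6, DNAJB7, DNAJB12, DNAJB13 and DNAJB14, lay between -0.07 and 0.12, with DNAJB2 lowest.

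Class C, whose members share little beyond the J-domain, had more members on the lower side: 19 of 29 measured symbols were below 0 and 10 above, with a median of -0.07, where 52.7% of all genes were below 0. DNAJC19, a part of the motor that pulls proteins into the mitochondrial matrix, had a deposited signal of 300 on the CDR1AS array and 452 on the control array. Its log2 ratio was -0.63 (1.54-fold lower), -0.54 with scaling to a common median and 0.13 after subtraction of the local background. DNAJC15, its relative of the mitochondrial inner membrane, was dim at 7.6 on the CDR1AS array and 16.2 on the control array (-0.35), a 2.13-fold difference in deposited signal. The next lowest were DNAJC21, a factor of 60S ribosome maturation, at 97.8 on the CDR1AS array and 123 on the control array (-0.33), and DNAJC4, at 84.3 and 96.5 in the same order (-0.21, other probe 0.01).

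On the higher side of class C stood DNAJC10, known as ERdj5, which reduces disulfide bonds in the endoplasmic reticulum. It had 102 on the CDR1AS array and 62.5 on the control array, with a log2 ratio of 0.49 (1.41-fold higher) and a 1.64-fold difference in deposited signal. DNAJC3, the endoplasmic reticulum J-protein known as p58IPK, was at 98.7 on the CDR1AS array and 99.9 on the control array (-0.07). The divergent transcript DNAJC3-DT had 46.5 on the CDR1AS array and 26.6 on the control array (0.43), so the transcripts of that locus differed in their ratios. The remaining measured symbols of the class lay between -0.20 and 0.22. They included DNAJC2 of the ribosome (0.12), the histone chaperone gene DNAJC9 (-0.18), the spliceosome-associated DNAJC8 (-0.20) and DNAJC7, whose 3 probes gave -0.11, -0.19 and 0.16.

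**Figure D3:**
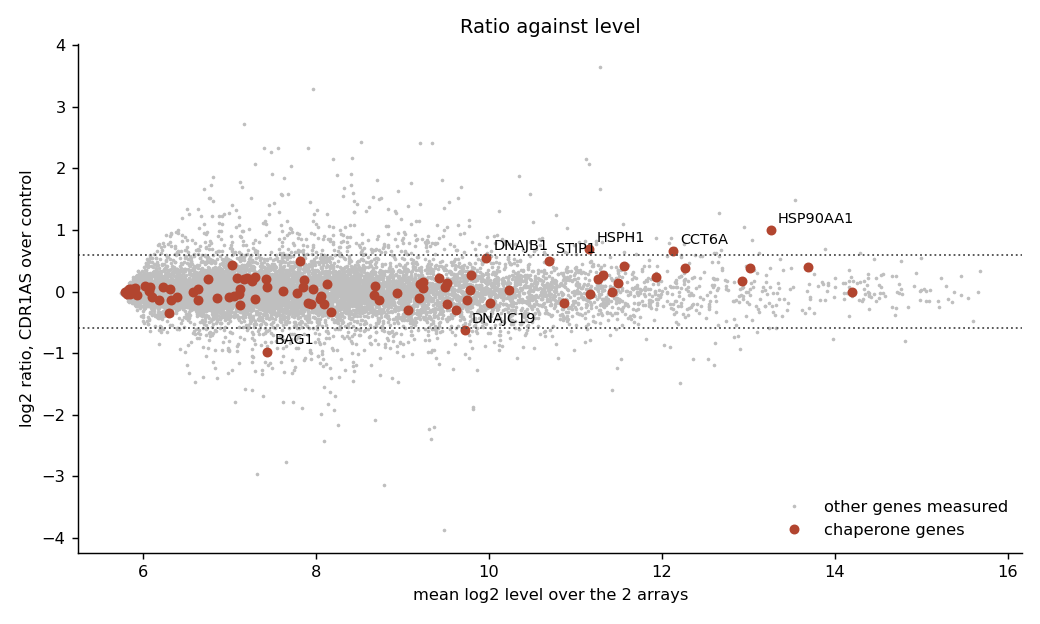
Log2 ratio (CDR1AS over control, y axis) against mean log2 level over the 2 arrays (x axis) for all genes measured (grey) and the 88 chaperone genes (red); dotted lines mark 1.5-fold. HSP90AA1, HSPH1 and CCT6A are in the bright range, where the chaperone genes lie mostly above 0, and BAG1 in the dim range.

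The cytosolic chaperonin CCT, also called TRiC, is a double ring of 8 kinds of subunit, all of them measured. Of the 8 subunit genes, 6 were above 0 and 2 just below, where 47.2% of all genes were above 0, with a median log2 ratio of 0.25. CCT6A had a deposited signal of 2647 on the CDR1AS array and 1619 on the control array (0.65, 1.57-fold higher). TCP1 had 2646 on the CDR1AS array and 1933 on the control array (0.39), and CCT4 had 4414 and 3399 in the same order (0.38). The others were CCT7 (0.27), CCT8 (0.23), CCT3 (0.15), CCT2 (-0.01) and CCT5 (-0.05), so the subunits of the ring did not share one ratio. CCT6A lies on chromosome 7 and TCP1 on 6, while CCT4 and CCT7 both lie on 2, as do HSPD1, HSPE1 and DNAJC10. The part of position in these ratios was not tested. CCT2 had 1268 on the CDR1AS array and 1260.2 on the control array. CCT2 and CCT5 were at 0.02 and 0.01 when the arrays were only scaled to the same median. CCT6B, a relative of CCT6A known from the testis, was near background at 1.6 on the CDR1AS array and 2.2 on the control array (-0.04), and with it the 9 measured CCT genes had a median of 0.23. After subtraction of the local background the median of the 9 was -0.36, with single genes between -2.88 for CCT5 and 4.23 for CCT8, and with TCP1, CCT4 and CCT7 at -0.98, -0.45 and -0.36.

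The mitochondrial chaperonin is made of HSPD1 (HSP60) and its lid HSPE1 (HSP10). HSPD1 had a deposited signal of 7535 on the CDR1AS array and 4997 on the control array. Its log2 ratio was 0.40, and 0.60 with scaling to a common median, a difference in deposited signal of 1.51-fold. HSPE1 had 56.0 on the CDR1AS array and 41.8 on the control array (0.24). The HSPE1 spot was dim, at 192 on the CDR1AS array and 153 on the control array. RefSeq names 22 pseudogenes after HSPD1 and 28 after HSPE1, with the same limit for the probes as above. The genes are neighbours on chromosome 2 with 104 bases between them on GRCh38.p14, HSPD1 at chr2:197486584-197500274 and HSPE1 at chr2:197500379-197503449.

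Most genes around this pair were higher too. Among the 19 other measured genes within 10 places of HSPD1, 14 had a log2 ratio above 0, with a median of 0.26 and a range from -0.10 to 0.78. Of all genes 47.2% were above 0. At least 1.5-fold higher were 3 of the 19, against 2.62% of all genes. COQ10B, next to HSPD1, had a deposited signal of 195 on the CDR1AS array and 113 on the control array (0.61), and the spliceosome gene SF3B1 had 333 on the CDR1AS array and 218 on the control array (0.49). SPATS2L was highest at 0.78. HSPD1 and HSPE1 were thus within the range of their neighbours, and the part of their position in their ratios was not tested. Without this pair the median of the members was 0.03 and the counts past 1.5-fold were the same.

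**Figure D4:**
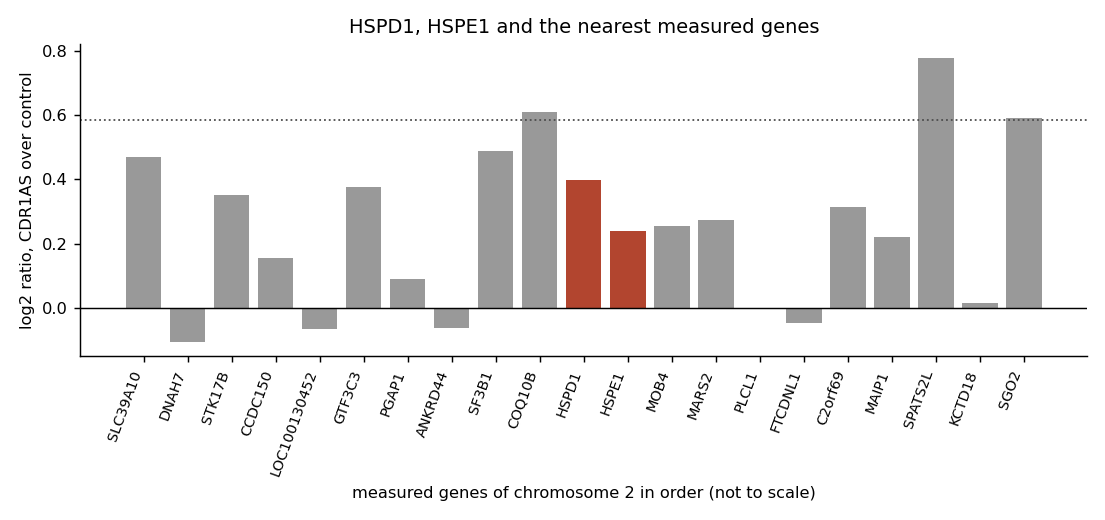
Log2 ratio (CDR1AS over control, y axis) of HSPD1, HSPE1 (red) and the other measured genes within 10 places on chromosome 2 (grey), in RefSeq order along the x axis; the dotted line marks 1.5-fold. HSPD1 (0.40) and HSPE1 (0.24) lie inside the range of their neighbours, of which SPATS2L (0.78) is highest.

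Small heat shock proteins hold unfolded proteins without ATP. Of 5 measured genes 4 were above 0, where 47.2% of all genes were, with a median of 0.05. HSPB1 (HSP27) had a deposited signal of 270 on the CDR1AS array and 246 on the control array, with a log2 ratio of 0.06. HSPB9 was highest (0.08), HSPB6 lowest (-0.14), and HSPB2 (0.05) and HSPB7 (0.04) lay between them. HSF1, the factor that drives the heat shock response, was dim, at 12.8 on the CDR1AS array and 11.6 on the control array (0.04). HSF1 is controlled mainly after translation, so its transcript does not report its activity.

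Of 17 genes listed as heat-inducible, 16 were measured, with a median log2 ratio of 0.19. The list was chosen with earlier results of these data known. It also holds HSPA8 and HSP90AB1, described above as constitutive forms. Of the 16, 11 were above 0, against 47.2% of all genes, and 2 were at least 1.5-fold higher, against 2.62%. HSP90AA1, HSPH1, DNAJB1, STIP1 and HSPD1 had ratios from 0.40 to 0.99. Other classic heat shock genes were near or below 0: HSPA1A (-0.19), HSPA1B (-0.03), HSPA6 (near background), HSPB1 (0.06) and BAG3 (0.09). After subtraction of the local background HSPH1, STIP1, HSPB1 and BAG3 were below 0 and HSPA1A and HSPA1B above 0. HSP90AA1 stayed above 0. DNAJA1, HSPE1, DNAJB4 and HSP90AB1 lay between 0.18 and 0.24, HSPA8 was at -0.01 and HSPA4L at -0.22. Without HSPD1 and HSPE1 the median was 0.13.

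Although the set is named for the cytosol, 10 of its measured genes were listed as endoplasmic reticulum genes and 8 as mitochondrial genes. Both lists were fixed sets of symbols, chosen with earlier results of these data known, and may leave out members of either compartment. Of the 10 listed endoplasmic reticulum genes 8 were above 0, where 47.2% of all genes were, with a median of 0.15. Past 1.5-fold there were 0, against 2.62% of all genes on the higher side and 2.23% on the lower side. After subtraction of the local background the median of these genes was below 0. DNAJC10 (0.49) and HSP90B1 (0.42) were highest, while BiP was at 0.05 on a dim probe. Of the 8 listed mitochondrial genes 3 were above 0, with a median of -0.08, and HSPD1 (0.40) and DNAJC19 (-0.63) were the ends. The mitochondrial members thus went both ways. DNAJC11 was at -0.02 and DNAJC30 at -0.14.

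Most of the bright members stood higher, although most of the 49 members above 0 were not bright. At a mean log2 level of 10 or more, a limit set after the values were seen, there were 19 members, with a median of 0.23 and 14 above 0. Of the 1337 genes in that range 48.8% were above 0 and the median was -0.01, with 4.79% at least 1.5-fold higher and 4.11% at least 1.5-fold lower. Of the 19 members 3 were past 1.5-fold on the higher side and 0 on the lower. The 69 members below that level had a median of 0.00, with 35 above 0. Over all genes the median in the bright range was the same as the median overall. Subtraction of the local background turned the sign of several of the 19 bright members. It put HSPH1, STIP1, TCP1, CCT4 and CCT7 below 0 and HSPA1A above 0.

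Genes of the folding network outside the rule were taken from lists of co-chaperones and stress targets, of which 57 genes were listed and 52 measured. Their median log2 ratio was -0.02, with 25 above 0 and 27 below, where 47.2% of all genes were above 0. At least 1.5-fold higher was 1 of the 52, GRPEL1, against 2.62% of all genes. At least 1.5-fold lower was 1, SDF2L1, against 2.23%. GRPEL1, the exchange factor of mitochondrial HSP70, had a deposited signal of 675 on the CDR1AS array and 337 on the control array (0.92, 1.90-fold higher). Its partner HSPA9 was at -0.30, as given above. SDF2L1, a co-chaperone of BiP with DNAJB11, had 392 on the CDR1AS array and 640 on the control array (-0.71, 1.63-fold lower), and 0.19 after subtraction of the local background.

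Prefoldin, which delivers actin and tubulin to CCT, had 3 of 6 genes above 0 and a median of -0.01, from PFDN5 (-0.27) to VBP1 (0.18). Of 12 measured HSP90 co-chaperones 5 were above 0 (median -0.11), where 47.2% of all genes were above 0. The highest was CHORDC1, an HSF1 target, at 549 on the CDR1AS array and 355 on the control array (0.53), and the lowest was UNC45A (-0.25). All 4 HSP70 co-chaperones were slightly below 0, from STUB1 (-0.17) to SGTA (-0.03), though SGTA was at 0.03 when the arrays were only scaled to the same median. After subtraction of the local background STUB1 was at 0.89, the median of the 4 at -0.38 and that of prefoldin at -0.53. The 2 measured CCT helpers were near 0 (PDCL at -0.04, TXNDC9 at -0.01). STIP1 and CHORDC1 thus stood higher while most co-chaperone genes did not.

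The 11 measured genes listed as other heat shock targets had a median of 0.18. Of these 7 were above 0, against 47.2% of all genes, and 0 were past 1.5-fold. CHORDC1 (0.53), the heme oxygenase gene HMOX1 (0.51) and RGS2 (0.43) were highest and CACYBP (-0.14) lowest; HMOX1 had 66.8 on the CDR1AS array and 37.9 on the control array. HSBP1, which encodes a small protein that binds HSF1, was at 644 on the CDR1AS array and 454 on the control array (0.44). Among 9 measured folding genes of the endoplasmic reticulum the median was 0.00, with PDIA4 at 0.40 and CRELD2 at -0.39. Among 10 mitochondrial quality control genes it was 0.12, with the mitochondrial HSP90 gene TRAP1 at 3342 on the CDR1AS array and 2362 on the control array (0.47) and the protease gene CLPP at -0.31.

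**Figure D5:**
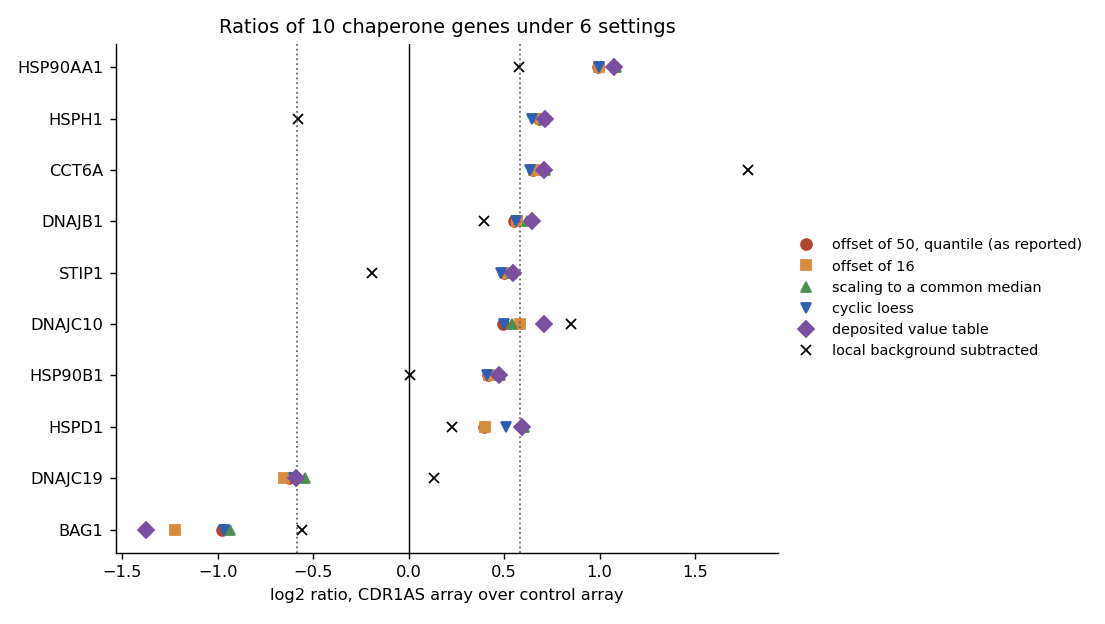
Log2 ratio (CDR1AS over control, x axis) of 10 chaperone genes (y axis) under 6 ways of processing the same 2 arrays, with dotted lines at 1.5-fold. Apart from subtraction of the local background (crosses), the settings shown keep each gene on the same side of 0; the crosses move HSPH1 to -0.58, STIP1 to -0.19 and DNAJC19 to 0.13.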

How the data were processed

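Total RNA of SW620 cells was amplified with amino allyl nucleotides and coupled to Cy5, per the labels' protocols. The deposited intensity of a spot is a median at 635 nm from 3 scanner gains, per the file headers, which do not say how the gains were joined. The deposited signal table was set against the spot files: on both arrays the signal followed spot intensity linearly (largest residual 0.0559 on the CDR1AS array and 0.0510 on the control array), and values near the blanks were left empty. A flag removed 1 of 24460 gene probes. Intensities were corrected with limma 3.58.1 in R 4.3.3 (normexp on all spots, without local background, offset 50), quantile-normalized and put on the log2 scale. The steps were also run on simulated data, with changes larger than that of any member and only in probes well above background. Recovery of smaller changes, or of changes in dim genes, was therefore not examined. Genes detected on a single array were given a bound, with the dim array set to at least its lowest detected value.

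Named genes were members past 1.5-fold, the 10 highest and 8 lowest, the ends of each class and every measured HSP90, CCT, mitochondrial chaperonin, BAG and heat-inducible gene; from other lists, genes past 1.5-fold and the ends. Further genes were named after their values were seen. Members and lists were chosen with earlier results of these data known. Of 24459 probes 21706 had 1 symbol, 0 several and 2753 none. Symbols of measured members matched RefSeq of GRCh38.p14. The genome build of the array design is not stated. Alternatives were the offset, the local background, scaling, cyclic loess, the deposited table, filters on dim probes, the probes' median and leaving out HSPD1 and HSPE1. With 1 array per group their number limits the precision, and nothing was tested. Protein sequences were not used here.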

Additional observations from a re-analysis of the deposited data

How the results depend on the processing

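No paired analysis was possible because each group was 1 array. A median or ratio counted as moved past 0.19 on the log2 scale, the SD of the control-spot ratios, and a count past 1.5 times. With an offset of 16, cyclic loess, no filter, the median of a gene's probes, and without HSPD1 and HSPE1, every class median and member count computed stayed within these limits. Most class medians were smaller than 0.19, so a median could change sign and still count as unmoved. The probes' median could alter only the 7 members with more than 1 probe. Leaving out HSPD1 and HSPE1 could not alter any other class. Scaling to a common median gave 5 members at least 1.5-fold higher and 1 lower (as reported 3 and 2). The deposited table gave 8 higher, with HSP40 B at 0.35 and the mitochondrial chaperonin at 0.51 (as reported 0.09 and 0.32). Probes at 2 times the limit on both arrays left 62 members with 1 lower and no value for HSF1, and leaving out HSPD1 and HSPE1 left none for their class. Subtraction of the local background gave 10 higher and 12 lower, and medians of -0.43 for HSP110, -0.22 for BAG, -0.36 for CCT and -0.056 for the endoplasmic reticulum members, with STIP1 at -0.19. Of 61 named genes it turned the sign of 21. Among those past 1.5-fold as reported these were HSPH1 (-0.58), DNAJC19 (0.13) and SDF2L1 (0.19). Among the others they included BAG3 (-0.60), HSPB1 (-0.38), DNAJA4 (0.32) and CHORDC1 (-0.02), and HSPA1A and HSPA1B, which went above 0. The medians of the CCT helpers (-0.27), the endoplasmic reticulum folding list (0.31) and HSBP1 alone (1.84) moved as well. In each other setting at most 7 named genes changed sign. The cause was not tested. Over all genes, 437 were at least 1.5-fold higher and 372 lower as reported, 680 were higher with an offset of 16, 1459 and 1413 after local background subtraction, 1495 and 1039 in the deposited table, and 283 higher among the 7398 genes of the stricter filter. Dim genes, such as DNAJC15 (-0.35 as reported, -1.09 in the deposited table), are limited by their closeness to background.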
